A study of Mus musculus with 2 samples.

Results

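The genes of respiratory complex I were measured in mouse heart sections, as the nuclear-encoded subunits and the assembly factors whose symbols start with Ndufa, Ndufb, Ndufc, Ndufs, Ndufv or Ndufaf. All 41 symbols of this pattern, of 19465 genes in the table, had at least 20 unique molecular identifiers (UMIs, counts of single captured probes) over both sections, so that none was left out for low counts, and the least counted had 323. They comprised 7 core subunits, 28 accessory subunits, with Ndufa4l2 counted among these by its symbol only, and 6 assembly factors. The subunits encoded by mitochondrial DNA, and Ndufa3, Ndufa4, Ndufb11, Ndufc1, Ndufaf3 and Ndufaf4, were not analysed here.

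One section of 5 μm came from a control α-MHC-MerCreMer heterozygous heart and 1 from a heart of the TOP2B transgenic line, which carried α-MHC-MerCreMer and the TOP2B LSL allele, both heterozygous. In this line the α-MHC promoter, active in cardiomyocytes, drives a tamoxifen-dependent Cre, which removes a STOP cassette in front of a human TOP2B cDNA under the CAG promoter at Rosa26. Control and transgenic mice alike carried MerCreMer and had a single intraperitoneal dose of 80 mg/kg tamoxifen, given at 6 weeks of age in the single-dose model of the study's methods. The time between tamoxifen and collection of these 2 hearts was not given in the sources used here. FFPE sections were captured with Visium CytAssist on an area 6.5 mm wide, in which gene-specific probes are read on barcoded spots, and a spot can hold parts of several cells.

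Complex I takes electrons from NADH and passes them to ubiquinone while it pumps protons across the inner mitochondrial membrane. Its matrix arm holds an NADH-oxidizing module (N) and a quinone-reducing module (Q), and its membrane arm a proximal (PP) and a distal (PD) pumping part. The core subunits carry the flavin, the iron-sulfur clusters and the quinone site, the accessory subunits surround and stabilize them, and assembly factors help to build the enzyme and are not part of the finished complex. The heart, which lives mainly on oxidative metabolism, is rich in this enzyme, and most of its mitochondria lie in cardiomyocytes.

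The control section had 1256 spots and 14376300 UMIs and the transgenic section 924 spots and 12953389 UMIs, with medians of 11335.5 and 14531 per spot. The sections shared 725 barcodes, which are array positions and not cells. Counts were summed over a section and expressed per 1000000 of its UMIs (CPM). With 1 section per group no test was run, and differences between sections cannot be told apart from differences between these 2 animals. Intervals in parentheses are exact at 95% and cover counting error only, and the range over 4 quadrants of a section is given as its inner spread. All 11 genes of a cardiomyocyte list were counted in both sections and made up 6.97% of control and 5.28% of transgenic UMIs. The mouse Top2b probe had 1531 and 1318 UMIs (log2 ratio −0.07, −0.17 to 0.04), which does not check the label, since the transgene is a human cDNA.

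Complex I genes were lower in the transgenic section. Together they made up 3.62% of control and 1.97% of transgenic UMIs (log2 ratio −0.88). Quadrants ranged from 3.54% to 3.68% in the control and from 1.56% to 2.41% in the transgenic section, without overlap. Of the 41 genes, 40 had a log2 ratio below 0, where 36.8% of the 15236 genes with at least 20 UMIs did. A difference of at least 1.5-fold downward was found for 32, against 12.9% of all genes. The 1 gene above 0, where 63.2% of all genes were, was Ndufa4l2, and it was higher by 1.5-fold, as were 27.4% of all genes. The interval lay wholly below 0 in 39 genes, against 17% of all genes. The median log2 ratio of the 41 was −0.88, with quartiles of −1.09 and −0.62, whereas that of all genes was 0.20. Taken by quadrant, 36 genes had every transgenic quadrant below every control quadrant, against 13.1% of all genes. Since well-counted genes separate more easily, the same was counted among genes with at least 1000 UMIs, where 35 of 37 complex I genes lay below, against 26.7%. The quadrants of Ndufb4, Ndufaf7, Ndufb3 and Ndufa7 overlapped. Among genes with at least 1000 UMIs, 31 of 37 complex I genes were lower by at least 1.5-fold, against 16.2%. Whether an interval excludes 0 also depends on counts, and that count was not repeated among well-counted genes. Probes differ in number and yield between genes, so that CPM is compared below between sections for a gene and not between genes.

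**Figure D1:**
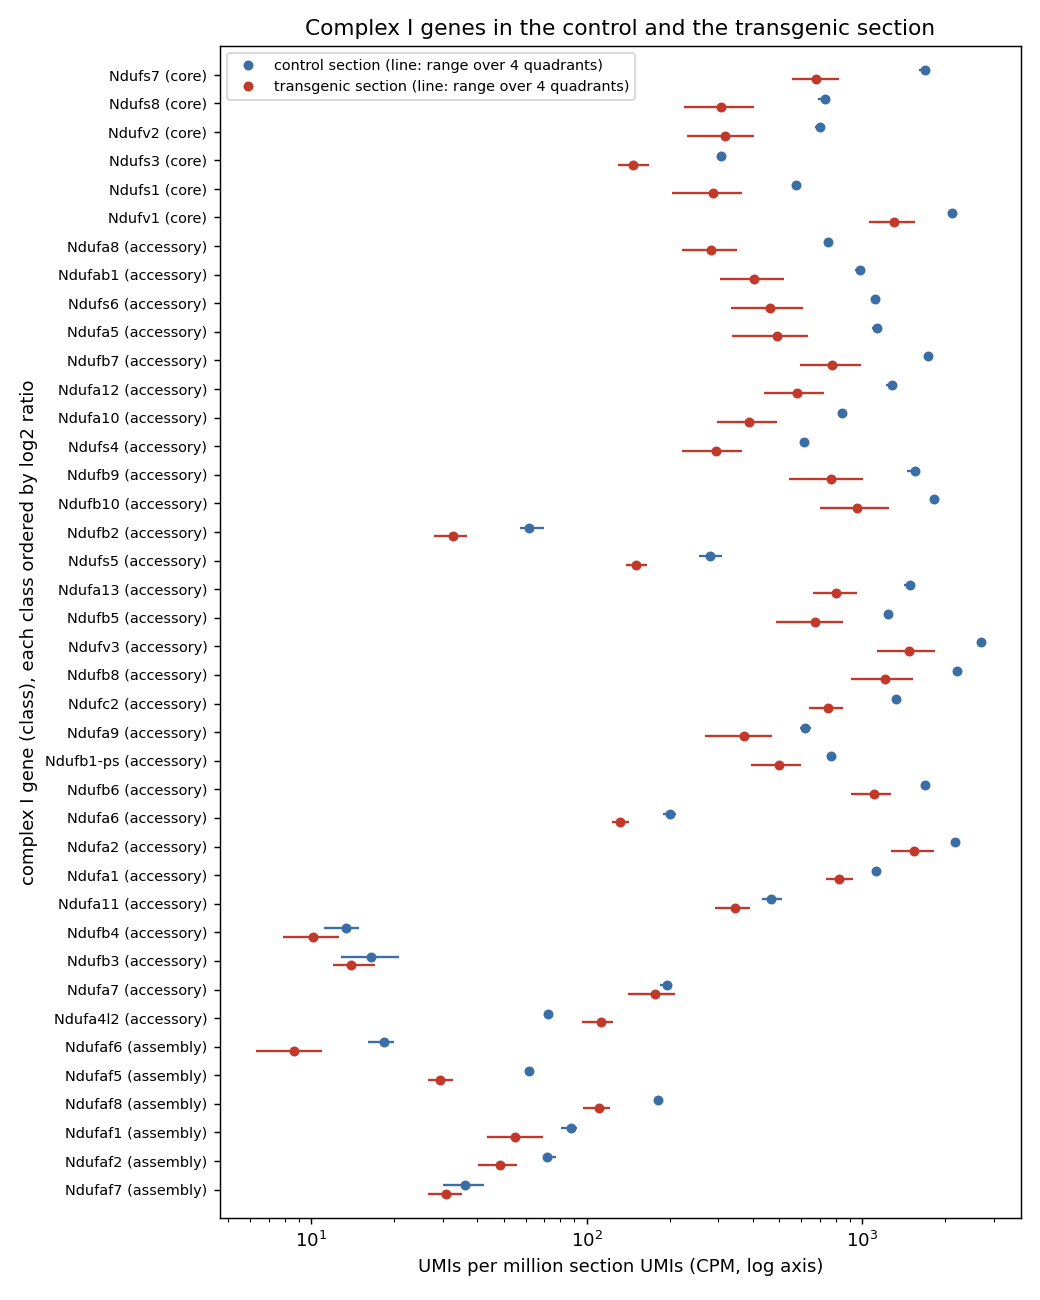
CPM (log axis) of 40 complex I genes in the control section (blue) and the transgenic section (red), with lines for the range over 4 quadrants of each section. In 35 of them the red range lies wholly left of the blue one, and Ndufa4l2 is the 1 gene in which it lies to the right.

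All 7 core subunits were lower by at least 1.5-fold and in every quadrant, with a median log2 ratio of −1.06. Ndufs7, which holds the last iron-sulfur cluster before ubiquinone, had 1694 CPM in control and 676.3 CPM in transgenic tissue (log2 ratio −1.32, −1.36 to −1.29). Its quadrants ranged from 1607 to 1760 CPM and from 555.4 to 819.3 CPM. Ndufs8, an iron-sulfur subunit next to it in the Q module, went from 732.8 to 306.2 CPM (log2 ratio −1.26, −1.31 to −1.21). These were the lowest of the core set, and both belong to the Q module.

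The core subunits of the NADH-oxidizing end were spread more widely. Ndufv2, with an iron-sulfur cluster near the flavin, had 700.8 and 317.0 CPM (log2 ratio −1.14, −1.20 to −1.09). Ndufs1, the largest subunit and carrier of several clusters, had 575.7 and 286.5 CPM (log2 ratio −1.01, −1.06 to −0.95). Ndufv1, which binds NADH and the flavin, had 2106 and 1299 CPM, a smaller difference of −0.70 (−0.73 to −0.67). The intervals of these 3 log2 ratios did not overlap, so that Ndufv1 stood apart from its partner Ndufv2 by more than counting error.

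In the Q module, Ndufs3 had 307.2 CPM in control and 146.9 CPM in transgenic tissue (log2 ratio −1.06, −1.14 to −0.99). Its quadrants held 300.4 to 320.5 CPM in the control and 129.7 to 167.5 CPM in the transgenic section, without overlap. The interval of Ndufs3 lay above those of Ndufs7 and Ndufs8, so that its difference was smaller than theirs by more than counting error.

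The 28 accessory subunits had a median log2 ratio of −0.88, and 21 were lower by at least 1.5-fold. Their range, from −1.41 to 0.64, was that of the whole set, and without Ndufa4l2 it ended at −0.15. Ndufa8, a membrane-arm subunit with paired cysteine motifs on the intermembrane side, was the lowest of all 41 genes. It had 10779 UMIs in the control and 3651 in the transgenic section, or 749.8 and 281.9 CPM, which is 62.4% less (log2 ratio −1.41, −1.47 to −1.36). Its quadrants held 723.8 to 772.5 CPM in the control and 221.5 to 350.5 CPM in the transgenic section.

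The DNA upstream of 3 accessory genes is shown for their place in the order of log2 ratios, as Ndufa8 is the lowest, Ndufa7 the nearest to 0 of those that were lower, and Ndufb4 a gene in between with the most matches to the motif of NRF1, a factor known to act on many respiratory chain genes. Each run is the 250 bases before a transcription start in RefSeq (GRCm38.p6), on the gene's strand, with matches to that motif on either strand in capitals. Ndufa8 lies on the minus strand at chr2:36049339-36049588, Ndufb4 on the minus strand at chr16:37654369-37654618, and Ndufa7 on the plus strand at chr17:33824322-33824571.
Ndufa8: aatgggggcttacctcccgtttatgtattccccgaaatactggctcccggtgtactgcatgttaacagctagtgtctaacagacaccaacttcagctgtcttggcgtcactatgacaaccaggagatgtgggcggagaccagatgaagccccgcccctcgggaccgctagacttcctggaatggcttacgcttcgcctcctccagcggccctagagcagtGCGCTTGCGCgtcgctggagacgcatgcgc
Ndufb4: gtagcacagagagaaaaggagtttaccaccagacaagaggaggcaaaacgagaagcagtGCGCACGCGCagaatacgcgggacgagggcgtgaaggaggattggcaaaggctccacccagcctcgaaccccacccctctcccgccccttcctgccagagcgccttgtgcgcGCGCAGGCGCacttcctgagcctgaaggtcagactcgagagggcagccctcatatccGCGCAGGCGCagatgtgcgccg
Ndufa7: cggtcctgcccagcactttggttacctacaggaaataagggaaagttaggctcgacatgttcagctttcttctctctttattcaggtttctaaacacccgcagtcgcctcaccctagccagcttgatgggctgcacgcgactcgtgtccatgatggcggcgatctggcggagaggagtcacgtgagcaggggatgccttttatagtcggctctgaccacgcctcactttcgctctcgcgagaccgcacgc

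RefSeq windows reaching from 250 bases before to 50 after the start were found for 35 of the 41 genes, as 37 windows. The NRF1 motif stood in 9 of these windows (24.3%), and in 4.60% of all 32851 windows of the table. The genes with it were Ndufa8, Ndufs6, Ndufa5, Ndufaf5, Ndufs5, Ndufa6, Ndufa11 and Ndufb4, and their log2 ratios ran from −1.41 to −0.40 with a median of −0.98. The 27 genes without it ran from −1.32 to −0.15 with a median of −0.87, so that the ranges overlapped. YY1's AAGATGG stood in 16.2% of the windows and in 6.34% of all, the cyclic AMP response TGACGTCA in 8.11% and 1.79%, AAGGTCA of the estrogen-related receptors in 8.11% and 4.72%, and the hypoxia response ACGTG in 18.9% and 19.6%. Both strands were searched, and ACGTG can overlap TGACGTCA or itself on the other strand. These are matches of letters and not measured sites.

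After Ndufa8, the lowest accessory subunits came from different modules. Ndufab1, the mitochondrial acyl carrier protein, which also serves fatty acid and lipoate synthesis, had 983.2 CPM in control and 404.3 CPM in transgenic tissue (log2 ratio −1.28, −1.33 to −1.24). Ndufs6, a zinc-binding subunit of the N module, had 1110 and 463.6 CPM (log2 ratio −1.26, −1.30 to −1.22). Ndufa5, of the Q module, had 1128 and 488.9 CPM (log2 ratio −1.21, −1.25 to −1.16). Ndufb7, at the intermembrane face of the distal membrane arm, had 1726 and 772.9 CPM (log2 ratio −1.16, −1.19 to −1.12). Ndufa12, which joins late in assembly where Ndufaf2 leaves, had 1280 and 579.8 CPM (log2 ratio −1.14, −1.18 to −1.10). In all 5 the transgenic quadrants lay below the control quadrants, and for Ndufs6 the highest transgenic quadrant held 607.0 CPM where the lowest control quadrant held 1094 CPM.

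Between these and the smallest differences lay 16 accessory subunits, Ndufa10, Ndufs4, Ndufb9, Ndufb10, Ndufb2, Ndufs5, Ndufa13, Ndufb5, Ndufv3, Ndufb8, Ndufc2, Ndufa9, Ndufb1-ps, Ndufb6, Ndufa6 and Ndufa2 from lowest to highest. Their log2 ratios ran from −1.12 to −0.49, 15 were lower by at least 1.5-fold, and all 16 had every transgenic quadrant below every control quadrant. They come from all 4 modules.

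At the other end, 5 accessory subunits besides Ndufa4l2 lay between −0.44 and −0.15. Ndufa7, a Q-module subunit, had 195.5 CPM in control and 176.5 CPM in transgenic tissue (log2 ratio −0.15, −0.23 to −0.07), and its transgenic quadrants, 141.2 to 208.5 CPM, took in all control quadrants, 184.1 to 203.8 CPM. In the 50% of spots of each section with the highest share of cardiomyocyte genes its log2 ratio was 0.07. Those transgenic spots also held a higher complex I share, 2.40% against 1.97% in the whole section. Ndufb3 and Ndufb4, distal membrane-arm subunits, were thinly counted. Ndufb3 had 236 and 181 UMIs (log2 ratio −0.23, −0.52 to 0.05), which is not distinguishable from 0 at this depth, and Ndufb4 had 192 and 131 (log2 ratio −0.40, −0.73 to −0.07). Ndufa11 and Ndufa1, subunits of the proximal membrane arm, were well counted. Ndufa11 had 466.7 and 344.7 CPM (log2 ratio −0.44, −0.49 to −0.38), and Ndufa1 had 1122 and 825.8 CPM (log2 ratio −0.44, −0.48 to −0.41). Both were lower in every quadrant, though by less than 1.5-fold.

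Ndufa4l2 was the 1 gene of the 41 with a higher level in the transgenic section. It is a paralog of Ndufa4 and is known as a target of hypoxia-inducible factor and as a gene of mural cells (pericytes and smooth muscle). It was grouped with the accessory subunits by its symbol only and was assigned to none of the 4 modules of complex I. Without it, all 27 accessory subunits had a log2 ratio below 0, with a median of −0.88. It had 1043 UMIs in the control and 1463 in the transgenic section, or 72.6 and 112.9 CPM (log2 ratio 0.64, 0.52 to 0.75). Its quadrants lay between 71.4 and 73.9 CPM in the control and between 96.1 and 124.7 CPM, all higher, in the transgenic section. The interval of a gene lay above 0 in 39.4% of all genes, and every transgenic quadrant above every control quadrant in 30.4%, so that this direction was common in the section. Relative to the median of all genes Ndufa4l2 stood at 0.44, and it remained above 0 with edgeR's TMM factors, at 0.48, which is under 1.5-fold. Per 1000 complex I UMIs it went from 2.00 to 5.73.

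Of 10 hypoxia genes measured, 9 were higher, where 63.2% of all genes were. Their median log2 ratio was 1.14, with a range from Vegfa, the vascular growth factor, at −0.16 to Car9, a carbonic anhydrase, at 2.91. Car9 rested on 8 and 54 UMIs. Of 12 mural genes 6 were higher and 6 lower, from Abcc9, a channel subunit, at −1.58 to Cnn1, a smooth muscle calponin, at 2.74. The list's median was 0.11, or −0.09 relative to the median of all genes. The mural sum was 0.131% of UMIs in both sections, with quadrants of 0.118% to 0.1495% and 0.122% to 0.142%, and no mural gene was at 0. Abcc9 gave 3655 of the 18830 mural UMIs in the control and 1105 of 16939 in the transgenic section. The equal sums therefore depend on this gene. Over transgenic spots the Ndufa4l2 share had Pearson's r of 0.24 with the mural share, 0.23 with the fibroblast share, 0.13 with the hypoxia share and −0.03 with the complex I share. Spots share a library and hold few Ndufa4l2 UMIs, so these weak values are descriptive. The part of any of these in its higher level was not tested.

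The 6 Ndufaf assembly factors were lower, 4 of them by at least 1.5-fold, with a median log2 ratio of −0.70. Ndufaf6, needed early in assembly, had 18.4 CPM in control and 8.65 CPM in transgenic tissue (log2 ratio −1.09, −1.42 to −0.76). Ndufaf5, which hydroxylates Ndufs7, had 61.5 and 29.3 CPM (log2 ratio −1.07, −1.25 to −0.90), and its partner Ndufaf8 had 181.9 and 110.6 CPM (log2 ratio −0.72, −0.81 to −0.62). Ndufaf5 and its substrate Ndufs7 were both lower by more than 2-fold. Ndufaf1, of the membrane-arm assembly complex, had 87.4 and 54.7 CPM (log2 ratio −0.68, −0.81 to −0.54), and Ndufaf2 had 71.8 and 48.25 CPM (log2 ratio −0.57, −0.72 to −0.43). Ndufaf7, a methyltransferase, had 36.2 and 30.7 CPM (log2 ratio −0.24, −0.43 to −0.04), with quadrants of 30.2 to 42.2 CPM and 26.5 to 35.2 CPM that overlapped.

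Another 13 genes of complex I assembly that do not bear an Ndufaf name had a median of −0.65. Of these, 12 were lower and 7 lower by at least 1.5-fold. They ranged from Ecsit, a partner of Ndufaf1, at 96.97 and 50.5 CPM (log2 ratio −0.94), to Lyrm2, a factor of the N module, at 12.0 and 16.3 CPM (log2 ratio 0.45, 0.15 to 0.74). Summed, assembly factors with an Ndufaf name went from 1.26 to 1.43 per 100 complex I UMIs, core subunits from 20.2 to 19.3, and accessory subunits from 78.6 to 79.3. The quadrant ranges of the core share, 19.9 to 20.4 and 19.0 to 19.6, did not overlap, nor did those of the assembly share, 1.23 to 1.29 and 1.34 to 1.62. On the log2 scale these shares of the pool differed by −0.06 for core, 0.01 for accessory and 0.18 for assembly genes, while the pool itself differed by −0.88.

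The modules were close to each other. The median log2 ratio was −1.04 for 8 N-module genes, −0.90 for 8 Q-module genes, −0.89 for 7 PP genes and −0.88 for 11 PD genes. Within each module the genes differed by more than the modules did, from Ndufs6 at −1.26 to Ndufa2 at −0.49 in N and from Ndufs7 at −1.32 to Ndufa7 at −0.15 in Q. Matrix-arm UMIs stood at 94.5 per 100 membrane-arm UMIs in the control and 93.5 in the transgenic section, with overlapping quadrants (93.5 to 95.7 and 91.9 to 94.1).

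How uniform the difference was can be read from the spread of the 41 log2 ratios, whose standard deviation was 0.40, or 0.32 without Ndufa4l2. Counting error alone gave a root mean square of 0.058. In 34 genes the interval excluded the set's median of −0.88, 19 lay within 0.25 of it and 36 within 0.5. The genes were therefore lower together but not by a single factor. Their order of abundance was nearly the same in both sections, with a Spearman correlation of 0.97 across genes, which are not independent replicates. Probe yield differs between genes in both sections alike, so this value says little on uniformity. It was not computed for other lists. The interquartile range was 0.47 for the 41 genes, 0.40 for 35 genes of complexes II to V and 0.85 for all genes.

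**Figure D2:**
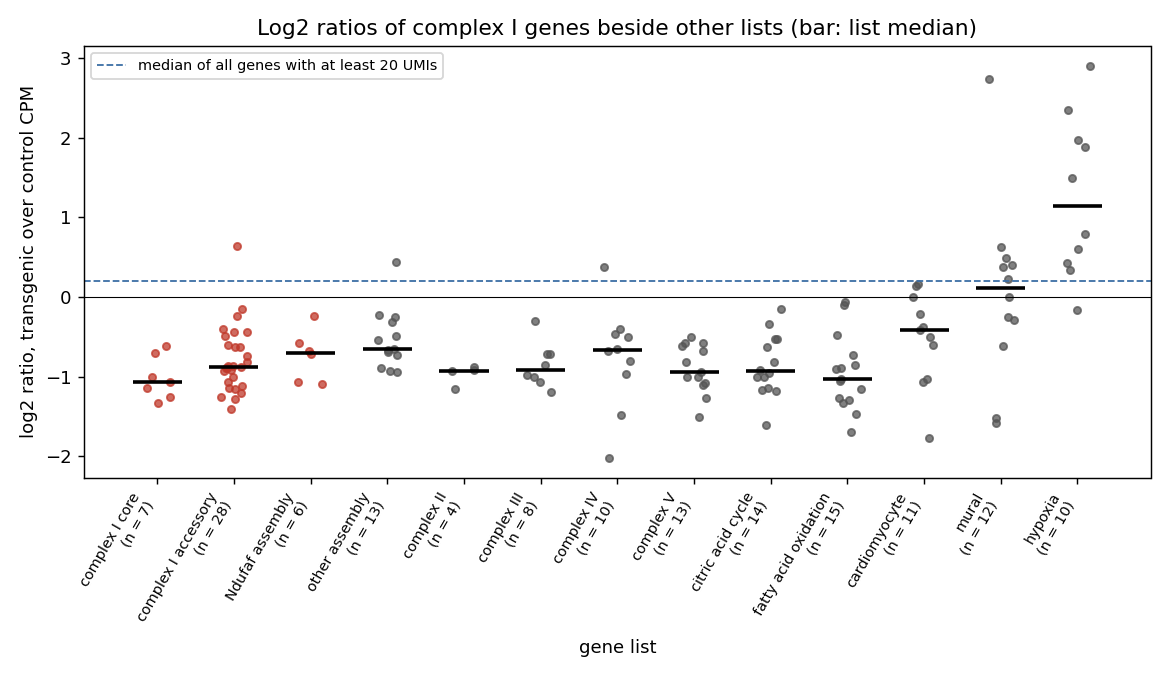
Log2 ratios of transgenic over control CPM (vertical axis) for single genes of complex I classes (red) and other lists (grey), with a bar at each list's median and a dashed line at 0.20, the median of all genes. The complex I accessory and Ndufaf medians of −0.88 and −0.70 lie among those of complexes II to V, between −0.94 and −0.67, and the core median of −1.06 lies below them.

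The complex I median of −0.88 lay among those of the other respiratory complexes, and with 1 section per group their differences could not be tested. Complex II had a median of −0.93 over 4 genes (from Sdhb at −1.15 to Sdhd at −0.88), complex III −0.92 over 8 (from Uqcrfs1 at −1.20 to Uqcrb at −0.31), and complex V −0.94 over 13 (from Atp5g1 at −1.50 to Atp5mpl at −0.50). Complex IV had −0.67 over 10 genes, and the widest range, from Cox7a1, a striated muscle isoform, at −2.02 to Cox6a1, an isoform of most other tissues, at 0.37 (0.17 relative to the median of all genes). Complex I UMIs per 100 UMIs of complexes II to V were 48.0 in the control and 49.2 in the transgenic section, with quadrants of 47.7 to 48.4 and 48.9 to 49.8. The 2 ranges did not overlap, but the log2 difference was 0.03, where that of the complex I share of all UMIs was −0.88. On that scale, chosen after the data were seen, the median of the 41 genes was 0.03 and 18 were below 0.

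Mitochondrial fuel pathways were lower by similar amounts. Of 14 citric acid cycle genes all were lower, with a median of −0.93, from Dlst at −1.61 to Idh3b at −0.16. All 15 genes of fatty acid oxidation were lower, with a median of −1.02, from Hadh at −1.69 to Acadl at −0.07. Complex I UMIs per 100 of the citric acid cycle went from 300.1 to 272.3 with no overlap of quadrants, and per 100 of fatty acid oxidation from 241.1 to 237.0 with overlap. The 11 cardiomyocyte genes had a smaller median of −0.42, from Mb, myoglobin, at −1.77 to Tnnt2, cardiac troponin T, at 0.17, and 9 were lower. Mb gave 203381 of the 1002169 UMIs of this list in the control and 53760 of 683609 in the transgenic section. The lower share of the list therefore depends in part on this gene. Complex I UMIs per 100 cardiomyocyte UMIs were 51.9 in the control (quadrants 51.2 to 52.9) and 37.4 in the transgenic section (32.1 to 41.1). Fewer cardiomyocytes in a spot and less of these transcripts per cardiomyocyte cannot be told apart in such data.

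Markers of erythroid cells, fibroblasts and macrophages moved as well. All 4 erythroid genes were higher, from Alas2 at 3.08 to Hbb-bt at 3.53, and their sum went from 0.214% (quadrants 0.167% to 0.255%) to 2.04% (0.717% to 4.60%). All 10 fibroblast genes had a log2 ratio above 0, from Gsn at 0.00 to Postn at 4.81, with a median of 1.59, and their sum went from 0.208% (0.187% to 0.227%) to 0.679% (0.483% to 0.860%). Relative to the median of all genes Gsn stood below 0. Of 10 macrophage genes 9 were higher, with a median of 0.93, from Lyz2 at −0.20 to Fcgr3 at 1.46, and a sum of 0.0314% (0.0297% to 0.0336%) and 0.0621% (0.0530% to 0.0691%). Of 10 endothelial genes 7 were higher, where 63.2% of all genes were. They ran from Kdr at −0.92 to Vwf at 2.48, with a median of 0.07, or −0.13 relative to that of all genes. Their sum was 0.190% (0.184% to 0.194%) and 0.193% (0.169% to 0.207%), with overlapping quadrants, so that this list as a whole stayed close. No gene of these lists was at 0 in a section. Their part in the lower complex I share was not tested, but the measure could be repeated on spots. In the 50% of spots of each section with the lowest erythroid share, where erythroid UMIs made up 0.0672% and 0.375%, the complex I median was −0.90 and 32 genes were lower by 1.5-fold. In the 50% richest in cardiomyocyte genes the complex I share was 3.65% and 2.40%, the median was −0.62, and 23 were lower by 1.5-fold. Over whole sections that share was 3.62% and 1.97%. It had r of 0.83 with the cardiomyocyte share over transgenic and 0.29 over control spots. This choice thus picks transgenic spots richer in complex I, and the smaller difference cannot be separated from it. How many of all genes were lower by 1.5-fold in either choice of spots was not counted. UMIs of the cardiomyocyte list made up 7.36% and 6.09% in those spots, so the sections were not matched for the share of this list.

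Complex I was even over the control section and uneven over the transgenic one. Over 1249 control spots with at least 1000 UMIs, the 10th, 50th and 90th percentiles of the complex I share were 3.24%, 3.61% and 3.94%. Over 921 transgenic spots they were 1.26%, 1.81% and 2.92%. Beyond counting error, the share varied between spots with a coefficient of variation of 5.73% in the control and 29.8% in the transgenic section. The variance was 2.51 and 28.8 times that of counting alone. Of the 921 transgenic spots, 905 (98.3%) lay below the control's 10th percentile and none above its median, so that the lower share extended over nearly the whole section.

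**Figure D3:**
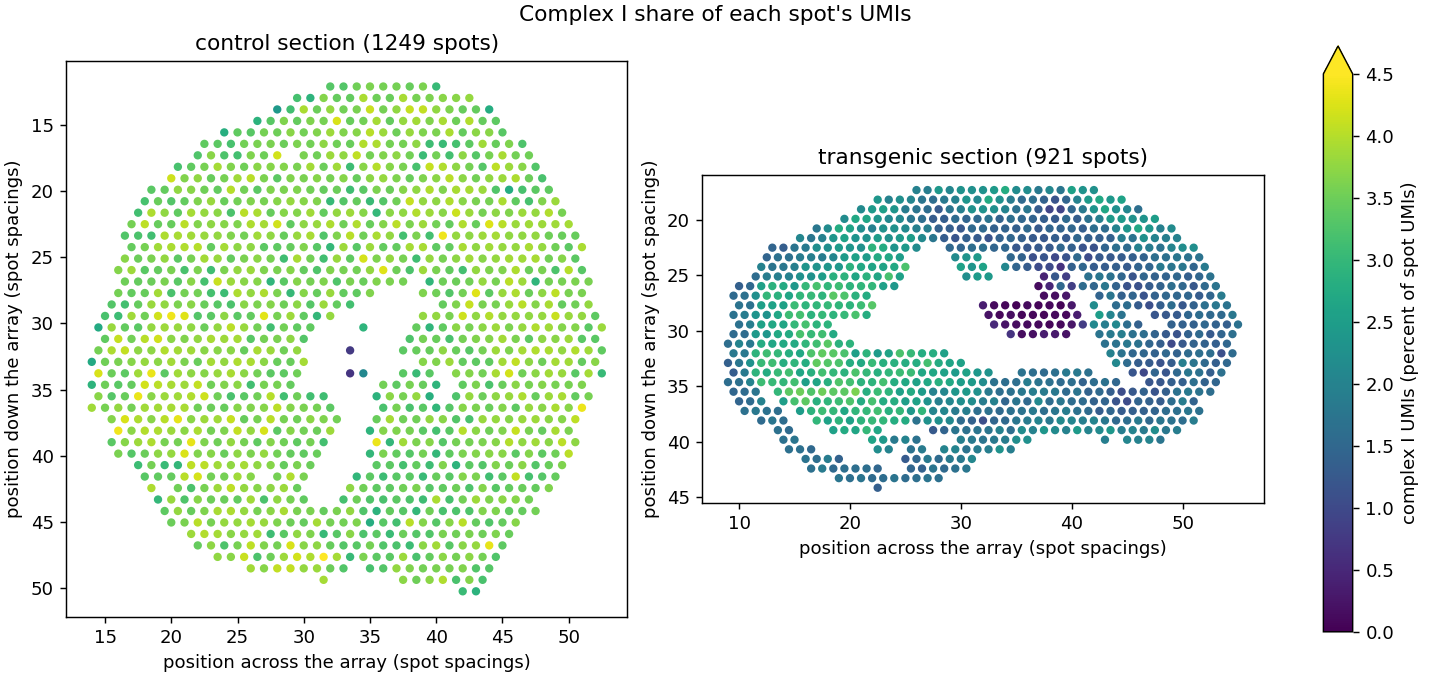
Complex I UMIs as a percent of each spot's UMIs (colour), by position on the array in spot spacings, for spots with at least 1000 UMIs. The control section is even at a median of 3.61%, and the transgenic section, with a median of 1.81%, has higher values on the left than on the right, with a patch near 0.

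The map shows a patch of transgenic spots with a complex I share near 0. Spots in which erythroid genes took at least 10% of the UMIs, a limit chosen after the data were seen, numbered 54 of 924 in the transgenic and 8 of 1256 in the control section. In the 54 spots erythroid UMIs made up 54.1% and complex I UMIs 0.656%. Over these 54 spots the 10th, 50th and 90th percentiles of the complex I share were 0.0756%, 0.248% and 1.36%, so that many of them lay near 0. Whether they lie in the patch was not measured by position. In the 869 other transgenic spots with UMIs the complex I share was 2.00%, with percentiles of 1.35%, 1.85% and 2.94%, and the coefficient of variation was 28.8%. Over the spots under this limit in both sections the median log2 ratio of the 41 genes was −0.86, and 31 were lower by 1.5-fold. The share of all genes that were so in these spots was not counted. The unevenness and the lower level were nearly as large without these spots.

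**Figure D4:**
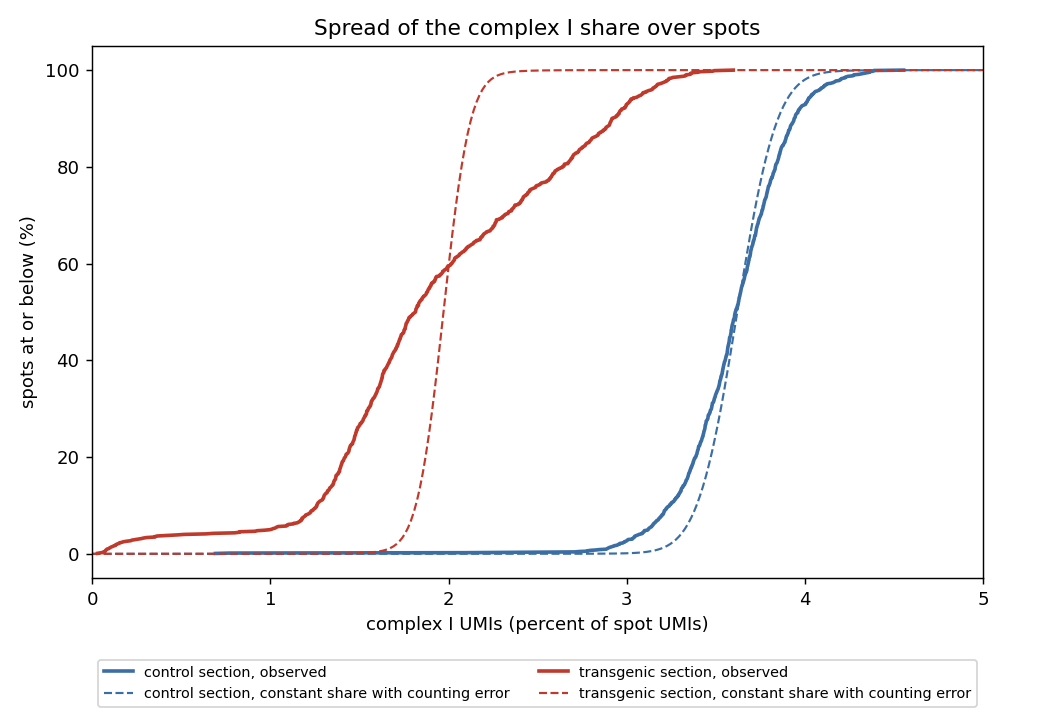
Share of spots (vertical axis, percent) at or below a given complex I share of spot UMIs (horizontal axis), as observed (solid) and as a constant share with counting error would give (dashed), for the control (blue) and the transgenic section (red). The observed control curve lies near its dashed curve, while the transgenic curve is spread from 1.26% at its 10th to 2.92% at its 90th percentile.

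The gradient was shared by most members. In the transgenic section the quadrant of high rows and low columns, with a complex I share of 2.41%, held the highest CPM of 36 of the 41 genes, and the quadrant of low rows and high columns, at 1.56%, the lowest of 33. The latter quadrant also had the highest erythroid share (4.60%), fibroblast share (0.860%) and level of Nppa, the atrial natriuretic peptide gene of stressed ventricles (27342 CPM, against 10678 CPM in the former), and the lowest cardiomyocyte share (4.60%, against 5.86%). Their part in the gradient was not tested. The share of complexes II to V was highest and lowest in the same quadrants, at 4.90% and 3.14%. How many of all genes were highest or lowest there was not counted, so the layout is not shown to be particular to complex I. The other quadrant of low columns held a complex I share of 2.26%, and that of high columns 1.63%. Erythroid shares in these were 0.717% and 1.48%. The complex I share thus differed mainly between low and high columns. The highest quadrant of a complex I gene was a median of 1.55 times its lowest in the transgenic and 1.08 times in the control section. Interior and edge spots were close, at 2.00% and 1.90% in the transgenic and 3.64% and 3.50% in the control section.

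Single genes showed it too. Moran's I, a deposited score of spatial autocorrelation that is near 0 for a random pattern, had a median of 0.03 over the genes in the control and 0.42 in the transgenic section, and it was higher in the latter for 38 of 41. The share of all genes with a higher score there was not counted, so the rise is not shown to be particular to complex I. Ndufv3, a small N-module subunit named here for having the highest score, stood at 0.13 and 0.64. Among the named core subunits, Ndufv1 went from 0.07 to 0.62 and Ndufs7 from 0.14 to 0.48, whereas Ndufs3, with fewer UMIs, went from 0.00 to 0.13. Ndufa8 went from 0.07 to 0.29 and Ndufa4l2 from 0.02 to 0.09. Assembly factors, with few UMIs per spot, reached 0.08 at most, for Ndufaf8, in the transgenic section. The score depends on depth, so low values of thinly counted genes do not show that they were even.

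For the 33 genes with at least 1 UMI per transgenic spot, the coefficient of variation beyond counting had a median of 32.4%, up to 44.3% for Ndufs6. Of the 32 with at least 1 UMI per spot in both sections, 31 varied more in the transgenic section, and the control median was 17.2%. The same count over all genes was not made. Correlated with the rest of complex I over transgenic spots, these complex I genes had a median r of 0.63 (from −0.04 for Ndufa4l2 to 0.81 for Ndufb8, named for this value), and over control spots of 0.12. The matrix-arm and membrane-arm shares had r of 0.94 over transgenic and 0.32 over control spots. Ndufa4l2, with few UMIs per spot, was the lowest of the 33.

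**Figure D5:**
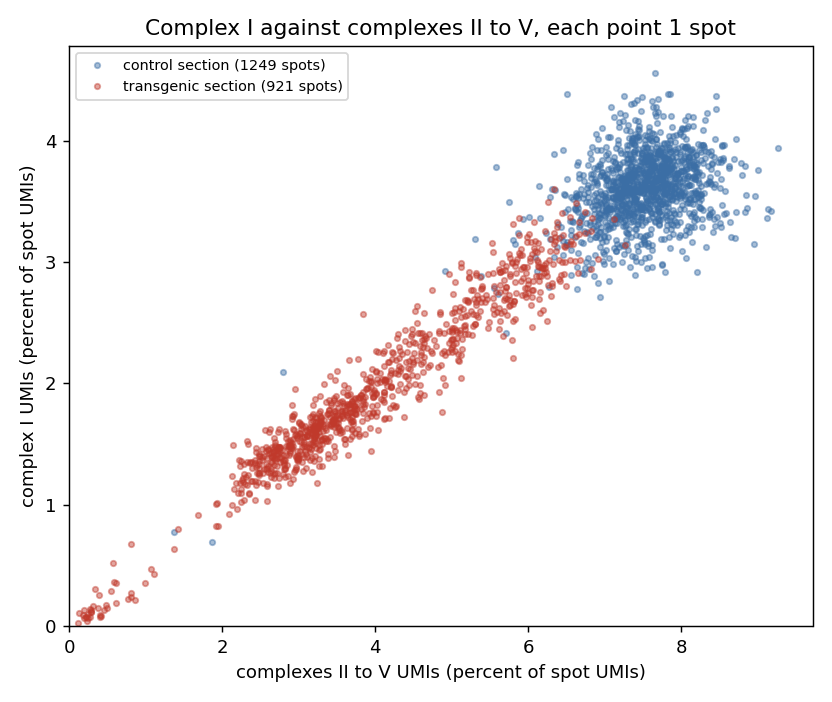
Complex I share (vertical axis, percent of spot UMIs) against the share of complexes II to V (horizontal axis, percent of spot UMIs) for each spot with at least 1000 UMIs in the control (blue) and the transgenic section (red). The spots of both sections lie along 1 band, on which the transgenic spots reach from near 0 into the range of the control spots, and 601 of 1249 control spots lie below the highest transgenic spot in complex I share.

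Spots that were low in complex I were low in the other complexes. Over transgenic spots the complex I share had r of 0.97 with complexes II to V, 0.93 with the citric acid cycle, 0.92 with fatty acid oxidation and 0.83 with the cardiomyocyte list, and over control spots 0.43, 0.32, 0.43 and 0.29. These shares have a common denominator and a common library. Taken as a fraction of the UMIs of complexes I to V, complex I varied between spots by 4.12% in the control and 2.94% in the transgenic section beyond counting, so that the wide spread of the transgenic section was nearly absent on this scale. With Myh6, the adult cardiac myosin gene, r was 0.78 in the transgenic section, with Myh7, the myosin gene of the fetal and failing ventricle, 0.25, with Nppa −0.34, with the fibroblast share −0.42 and with the erythroid share −0.54. The last was −0.45 among interior spots. By rank, Spearman's correlation was −0.47 with Nppa, −0.58 with the fibroblast share and −0.07 with the erythroid share. The erythroid relation was thus nearly absent by rank. Depth had little relation to the complex I share, with r of 0.17 between that share and the UMIs of a transgenic spot.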

How the data were processed

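Visium CytAssist profiles came from 2 hearts, 1 control and 1 TOP2B transgenic, with 1 section each. The deposited values are unnormalized UMI counts of every gene in every spot over tissue, made by the authors with Space Ranger 2.0.0 per the file headers, and the submitters' processing notes name GRCm39. Moran's I is a score the authors deposited per gene. The probe set was not given in the sources used here.

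Counts were summed per section and scaled to CPM. With 1 section per group no test was run, and the study's test over spots was not repeated. A call is a difference of at least 1.5-fold. Intervals are exact Poisson (levels) or conditional binomial (ratios) at 95%. Quadrants were split at the mean row and column, and spot spread used spots with at least 1000 UMIs, with the variance of counting subtracted. Estimators were tested on simulated data. Python 3.11.15, numpy 2.4.6, scipy 1.17.1, pandas 2.3.3 and matplotlib 3.10.9 were used, with edgeR 4.0.16 and DESeq2 1.42.0 in R 4.3.3 for scaling factors only. Promoters came from RefSeq (GRCm38.p6), and 6 of the 41 genes had no entry.

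The members, the lists and the measures were chosen with earlier results of these data known. Named genes are core subunits, the Ndufaf genes, Ndufa8, Ndufa4l2, the 5 highest and 5 lowest other accessory subunits, and the highest and lowest gene of each other list. Genes outside this rule are said to be so, or give a range, and 1 gene of the rule is counted in the sums but not reported here. Alternatives covered scaling, spots, pseudocount and count filter. Mitochondrial ribosomal protein genes, intended for comparison, and mitochondrial DNA subunits (0 of 7 listed) were not analysed here.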

Additional observations from a re-analysis of the deposited data

How the results depend on the processing

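Under each planned scaling, choice of spots and pseudocount, the median log2 ratios of all 41 genes and of the 3 classes kept their direction. So did the summed complex I ratio. These values and the interquartile range moved by less than the spread over transgenic quadrants, and the count lower by 1.5-fold by less than 1.5 times. The count filters, at least 1 and at least 200 UMIs, kept the same 41 genes and so could not change any value. A common scaling factor cannot change the interquartile range either. The lowest and highest medians of the 41 genes were −1.08 relative to the median of all genes and −0.62 in the 50% of spots with the highest share of cardiomyocyte UMIs, where 23 genes rather than 32 were lower by 1.5-fold. That choice also picks transgenic spots richer in complex I. TMM and DESeq2 factors (both DESeq2 factors were 1) lowered every log2 ratio by about as much as the median of all genes, which moved by −0.16 and −0.15, and gave 36 genes each. The share of all genes lower by 1.5-fold, 12.9%, was counted for CPM over whole sections only. Counts under other settings therefore cannot be read against it. Relative to the UMIs of complexes II to V, an alternative chosen after the data were seen, the median of the 41 genes turned to 0.031. The summed UMIs of complexes II to V were lower by a similar factor (log2 ratio −0.91). The Ndufa7 log2 ratio turned to 0.069 in the same spots, and the cause was not tested. Of 369 single-gene values, 191 stayed inside the gene's counting interval, 177 moved outside it and 1 reversed. The coefficient of variation over control spots, 5.73%, was 5.47% away from the tissue edge, 6.51% without the 50 most abundant genes and 4.12% within complexes I to V, and that over transgenic spots, 29.8%, was 2.94% within complexes I to V. No paired analysis was possible because each condition had 1 section. Depth limits the thinly counted Ndufb3, Ndufb4 and Ndufaf6.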
